A study of Mus musculus with 8 samples.

Results

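The loci of 7 Nodal pathway genes were described in 4 lists of accessible chromatin peaks. The genes were Nodal, Lefty1, Lefty2, Tdgf1, Foxh1, Acvr1b and Acvr2b, out of 21938 protein-coding genes in the annotation. They were chosen by name, and every peak that overlapped a gene body or the 50 kb to either side of it was taken as belonging to that gene. All 7 genes were found, and their windows covered 733.436 kb of the mm10 genome (GRCm38).

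The peaks came from ATAC-seq, an assay in which a transposase cuts open DNA and leaves sequencing adapters there. The study asked how the histone demethylase Jmjd3 bears on reprogramming, and the 8 libraries used here were all Jmjd3 wild type, with 2 libraries for each of 4 groups. MEFs were uninfected mouse embryonic fibroblasts of the C57BL/6J-OG2 strain, whose green fluorescent reporter is driven by Pou5f1 sequence. The day 5 and day 10 groups were such MEFs, 5 and 10 days after infection with retroviruses for OSKM (Oct4, Sox2, Klf4 and Myc). They also carried the FLAG vector, the empty control for overexpression, and grew in medium for ESCs to which vitamin C was added. ESCs were uninfected embryonic stem cells, with replicate 1 labelled C57Bl6J and replicate 2 labelled C57BL/6J-OG2. The labels name no sort of the infected cells, and in bulk libraries a peak seen in few cells and a peak seen weakly in all cells cannot be told apart.

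Each group had 1 deposited peak list for its 2 libraries, with 56514 peaks for MEFs, 36219 for day 5, 35226 for day 10 and 48486 for ESCs. There was therefore no replicate value for any peak, no test between groups was possible, and the sequencing depth behind the lists is unknown. The lists differed in length, and an absent peak means only that none was listed there. The labels were checked on the start sites of 6 fibroblast genes (Prrx1, Twist2, Col1a1, Col1a2, Thy1 and Pdgfrb). A peak lay over 6 of them in the MEF list, 4 at day 5, 2 at day 10 and 1 in the ESC list. Of 6 pluripotency genes (Nanog, Esrrb, Dppa4, Dppa5a, Tfcp2l1 and Zfp42), 2 had a start-site peak in the MEF list, 1 at day 5, 1 at day 10 and 5 in the ESC list. MEF and ESC lists thus differed at these markers in the direction of their labels.

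Nodal is a secreted ligand of the TGF-beta family. It acts through the type I receptor ALK4, encoded by Acvr1b, and a type II receptor such as the one encoded by Acvr2b, and needs an EGF-CFC co-receptor such as Cripto, encoded by Tdgf1. The receptors phosphorylate SMAD2 and SMAD3, which enter the nucleus with SMAD4 and bind DNA together with FOXH1. Nodal, Lefty1 and Lefty2 are themselves targets of this signal, and the LEFTY proteins block the ligand and its co-receptor, so the pathway holds both a positive and a negative loop. It patterns the early embryo and its left-right axis, and Lefty1 and Tdgf1 are well known for their high expression in mouse ESCs.

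Wide differences between the lists lay next to the 5′ ends of Nodal, Lefty1, Lefty2 and Tdgf1, in stretches upstream of the gene that were longest in the ESC list or present there alone. The 6 pieces of these stretches are shown for the letters they hold. They were read from the reference genome on the plus strand of GRCm38, which is the coding strand for Nodal, Lefty1 and Lefty2 and the opposite strand for Tdgf1. None of them overlapped an annotated exon. Capitals mark matches, on either strand, to the letters searched for each factor. These were TGTGGATT or TGTGTATT for FOXH1, GTCTAGAC for a paired SMAD site, ATGCAAAT for the octamer that OCT4 binds, CCATTGT or CCTTTGT for SOX factors and CCACACCC or CCCCACCC for KLF factors. The letters of ESRRB (TCAAGGTCA) and AP-1 (TGACTCA or TGAGTCA) were also searched and had no match in these 4 upstream regions.

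The first piece, chr1:180933990-180934289, lies upstream of Lefty1 inside the day 10 and ESC peaks, and is shown for its octamer match and a pair of KLF matches.
Lefty1 upstream: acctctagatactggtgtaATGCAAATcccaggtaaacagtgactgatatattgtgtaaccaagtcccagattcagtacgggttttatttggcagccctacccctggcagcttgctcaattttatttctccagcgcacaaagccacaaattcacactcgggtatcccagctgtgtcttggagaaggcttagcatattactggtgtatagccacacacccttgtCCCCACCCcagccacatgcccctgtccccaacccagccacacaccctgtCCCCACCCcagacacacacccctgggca
The next pieces, chr1:180888825-180889004 and chr1:180889293-180889352, lie upstream of Lefty2. The former is shown for its 2 FOXH1 matches and a KLF match, and the latter for its SMAD match.
Lefty2 upstream, FOXH1 piece: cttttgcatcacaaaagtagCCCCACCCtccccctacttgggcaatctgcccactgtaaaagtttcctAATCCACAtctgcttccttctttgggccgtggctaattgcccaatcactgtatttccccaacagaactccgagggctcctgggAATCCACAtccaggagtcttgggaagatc
Lefty2 upstream, SMAD piece: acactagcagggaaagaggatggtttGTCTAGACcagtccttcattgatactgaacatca
A piece upstream of Nodal, chr10:61416706-61416885, lies in the ESC peak only and is shown for its SOX match and a pair of overlapping KLF matches.
Nodal upstream: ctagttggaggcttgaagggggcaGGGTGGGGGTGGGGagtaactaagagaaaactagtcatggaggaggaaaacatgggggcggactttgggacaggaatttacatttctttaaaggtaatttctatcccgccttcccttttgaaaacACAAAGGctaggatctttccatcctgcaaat
The last pieces, chr9:110947179-110947418 and chr9:110947966-110948025, lie upstream of Tdgf1 in a peak of the ESC list only. The former is shown for a SOX and a KLF match and the latter for its octamer match.
Tdgf1 upstream, SOX piece: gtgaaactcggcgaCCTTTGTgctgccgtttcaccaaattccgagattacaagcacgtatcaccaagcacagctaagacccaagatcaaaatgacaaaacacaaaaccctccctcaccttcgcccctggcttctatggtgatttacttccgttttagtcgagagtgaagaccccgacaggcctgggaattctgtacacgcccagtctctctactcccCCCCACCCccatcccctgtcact
Tdgf1 upstream, octamer piece: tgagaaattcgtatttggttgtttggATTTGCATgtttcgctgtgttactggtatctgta

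Across the loci, the windows of the 7 genes held 48 distinct peaks in the MEF list, 38 at day 5, 38 at day 10 and 42 in the ESC list. The 7 genes had a median of 8, 7, 8 and 7 peaks in these lists, against 5, 3, 3 and 4 over all protein-coding genes. Most members therefore sat in windows with more peaks than the median gene, in each of the 4 lists. Nodal equalled that median on both days, and Acvr2b equalled it in the MEF and ESC lists. Tdgf1 was below it in MEFs and on both days, with 2 peaks in each of the 3 lists, and had 7 in the ESC list. It was the only 1 of the 7 with more peaks in the ESC list than in the MEF list, as 35.6% of all genes had. Fewer peaks in the ESC list were found for 5 of 7 genes, against 42.2% of all genes, and Foxh1 had 8 in both.

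**Figure D1:**
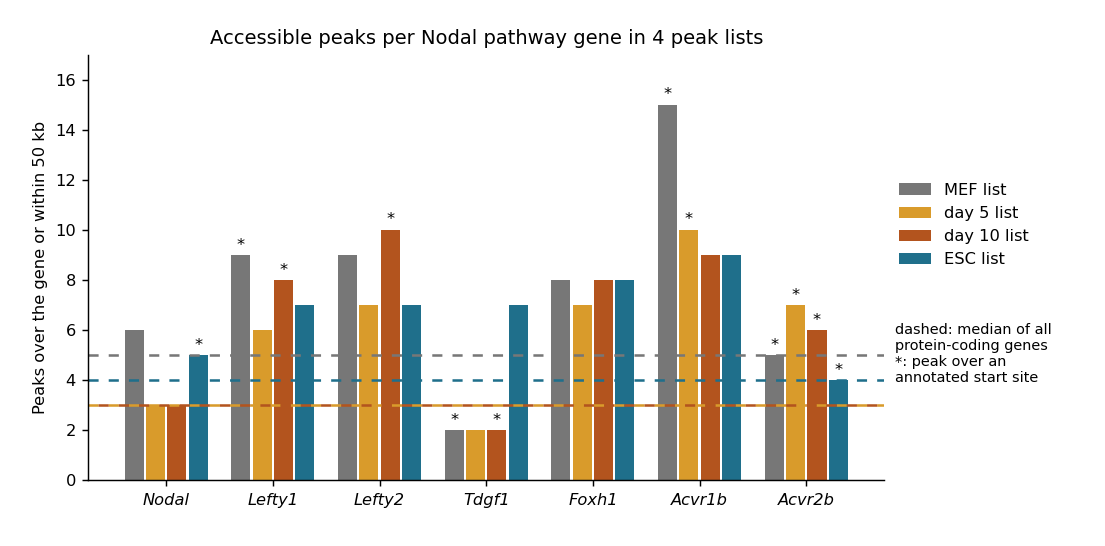
Number of peaks (y axis) over each gene or within 50 kb of it (x axis) in the MEF, day 5, day 10 and ESC lists (bars). Dashed lines mark the median of all 21938 protein-coding genes in each list, with day 5 and day 10 both at 3, and asterisks mark a peak over an annotated start site of the gene. Tdgf1 rises from 2 peaks in 3 lists to 7 in the ESC list, and Acvr1b falls from 15 in the MEF list to 9.

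Start sites were counted over all annotated transcripts of a gene. A peak lay over at least 1 start site of 4 of 7 genes in the MEF list, against 60% of all genes. At day 5 it was 2 of 7, against 52.1%, at day 10 it was 4 of 7, against 56%, and in the ESC list it was 2 of 7, against 55.8%. Only Acvr2b had a start-site peak in all 4 lists, which 46.8% of all genes had, and only Foxh1 had none in any list, as 35.4% of all genes had. Over the 5′ end of the gene itself, peaks were counted for 2 of 7 genes in the MEF list (52.6% of all genes) and 2 at day 5 (44.1%). The count was 1 at day 10 (48.5%) and 2 in the ESC list (47%). The counts over 7 genes were not tested against the shares over all genes.

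A peak lay over the 5′ end of Acvr2b in all 4 lists, of Acvr1b in the MEF and day 5 lists and of Nodal in the ESC list, and CpG content differed among these promoters. Between 250 bases before and 50 after the 5′ end, the ratio of observed to expected CpG was 1.07 for Acvr1b and 0.680 for Acvr2b, the genes of both receptors. It was 0.545 for Tdgf1, 0.280 for Lefty2, 0.229 for Nodal, 0.190 for Lefty1 and 0.153 for Foxh1, and the median over all genes was 0.525. Of all genes with a ratio over 0.6, 77.0% had a start-site peak in all 4 lists and 5.19% in none. Of those at or under 0.6, 22.7% had it in all lists and 59.5% in none. These shares count a peak over any annotated start site, while the members above are given by the 5′ end alone.

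Nodal (ENSMUSG00000037171.6, chr10:61417972-61425338, plus strand), the ligand, had 6 peaks in the MEF list, 3 at day 5, 3 at day 10 and 5 in the ESC list. Its 5′ end lay under a peak in the ESC list only. That peak, chr10:61415737-61418921, was 3185 bp wide, from 2235 bp upstream to 949 bp downstream of the 5′ end, and only 26 of the 48486 ESC peaks were at least as wide. It took in 2235 bp of intergenic sequence, 524 bp of exon and 426 bp of intron. The other lists had small peaks inside this stretch but at different places. The MEF peak was 288 bp wide, 551 to 838 bp downstream of the 5′ end, and the day 5 peak was 315 bp wide, 453 to 767 bp downstream. The day 10 peak was 346 bp wide and lay upstream, 1478 to 1823 bp from the 5′ end. The MEF and day 5 peaks shared 217 bp, and the day 10 peak shared 0 bp with either, so that no base was covered in all 4 lists.

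Scores put these small peaks low in their lists. The deposited −log10 q-value (a higher value is a stronger call) was 2.83 for the MEF peak, 1.23 at day 5 and 1.54 at day 10, against 5.50 for the ESC peak. The fold enrichment over background was 2.82, 2.62, 2.42 and 2.79 in the same order, so the ESC peak stood out by its width and its −log10 q-value and not by its fold enrichment. At 9.21 times the width of the widest peak in any other list, the ESC peak of Nodal had the highest such ratio of the 14071 regions with a peak in all 4 lists. This measure was chosen after the widths had been seen. Of the 5 matches upstream, the SOX match at 1117 bp and the KLF matches at 1236 and 1242 bp lay in the ESC peak alone. The KLF matches at 1536 and 1541 bp also lay in the day 10 peak. No FOXH1 or SMAD letters were found in the 3185 bp.

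The rest of the Nodal window held 7 regions. Those over the start sites of the neighbouring genes Pald1, 34.8 kb upstream, and Eif4ebp2, 34.3 kb downstream, had peaks in all 4 lists. The MEF-only regions were intergenic and 23.3 kb upstream, 18.5 kb upstream and 48.8 kb downstream. The ESC-only regions were in introns of Pald1 and of Eif4ebp2, and the former (chr10:61375199-61375549) had the highest fold enrichment of the Nodal window in the ESC list, 4.46.

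Lefty1 (ENSMUSG00000038793.8, chr1:180935022-180938400, plus strand) encodes an antagonist of Nodal and had 9, 6, 8 and 7 peaks in the MEF, day 5, day 10 and ESC lists. No list had a peak over its 5′ end. An intergenic region just upstream, chr1:180933453-180934710, had no peak in the MEF list, 1 of 251 bp at day 5, 1 of 758 bp at day 10 and 1 of 1258 bp in the ESC list. The 3 peaks were nested, so the 251 bp of day 5 were covered at day 10 and in ESCs too. The near edge was 841 bp from the 5′ end at day 5, 394 bp at day 10 and 312 bp in ESCs. Edges and widths may also depend on how the peaks of both replicates overlapped and on the unknown depth. It was the only region of the 72 with peaks at day 5, day 10 and in ESCs and none in MEFs, a pattern of 2.31% of all regions. Of the 2350 such regions in the genome, 698 (29.7%) widened in the same order, so the order by itself was common.

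Enrichment did not follow width at Lefty1. The −log10 q-value was 2.82 at day 5, 5.79 at day 10 and 2.02 in the ESC list, and the fold enrichment was 3.17, 3.33 and 2.80. The ESC peak ranked 42079 of 48486 by score, and it was lost when every list was limited to its 35226 best-scoring peaks, the length of the shortest list. The octamer match in the sequence above, 1013 bp upstream of the 5′ end, lay in the day 5 peak and in the day 10 and ESC peaks around it. The KLF matches at 760 and 809 bp and a SOX match at 1144 bp lay in the day 10 and ESC peaks and outside the day 5 peak. Inside the gene, a region over the start of a retained-intron transcript (chr1:180936656-180937186) had a peak of 531 bp in the MEF list and 259 bp at day 10, and none at day 5 or in ESCs.

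Lefty2 (ENSMUSG00000066652.5, chr1:180893108-180899103, plus strand) encodes the second antagonist and had 9, 7, 10 and 7 peaks. Its 5′ end lies 41914 bp from that of Lefty1, and 11 of the 15 regions in each window were shared by both. The 5′ end of Lefty2 had no peak, and a 112 bp peak of the day 10 list over a retained-intron start was the only start-site peak. With a −log10 q-value of 1.64, that peak ranked 33517 of 35226 in its list. An intergenic region 3190 to 4762 bp upstream, chr1:180888346-180889918, had a peak in all 4 lists, and had the highest fold enrichment of both Lefty windows in the ESC list. Its peak was 512 bp wide in MEFs, 653 bp at day 5, 825 bp at day 10 and 1539 bp in ESCs. The fold enrichment was 2.72, 4.28, 3.71 and 4.51, and the −log10 q-value 2.99, 7.80, 9.23 and 12.5, so both were lowest in MEFs and highest in ESCs. By −log10 q the ESC peak was in the top 5.81% of its list, and the MEF peak in the top 71.0%.

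The 512 bp of the MEF peak were covered in all 4 lists, and held the 2 FOXH1 matches printed above, at 4132 and 4215 bp upstream, and the KLF match at 4263 bp. The SMAD match, at 3789 bp, lay outside the MEF, day 5 and day 10 peaks and inside the ESC peak, whose near edge was 3190 bp from the 5′ end, against 3921 bp for the day 5 peak. The ESC peak was 1.87 times as wide as the widest of the others, a ratio reached by 159 (1.13%) of the 14071 regions with a peak in all 4 lists. Here too the measure was chosen after the widths had been seen. With the lists limited to equal size, the MEF peak was lost, and the region then had peaks at day 5, day 10 and in ESCs only.

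**Figure D2:**
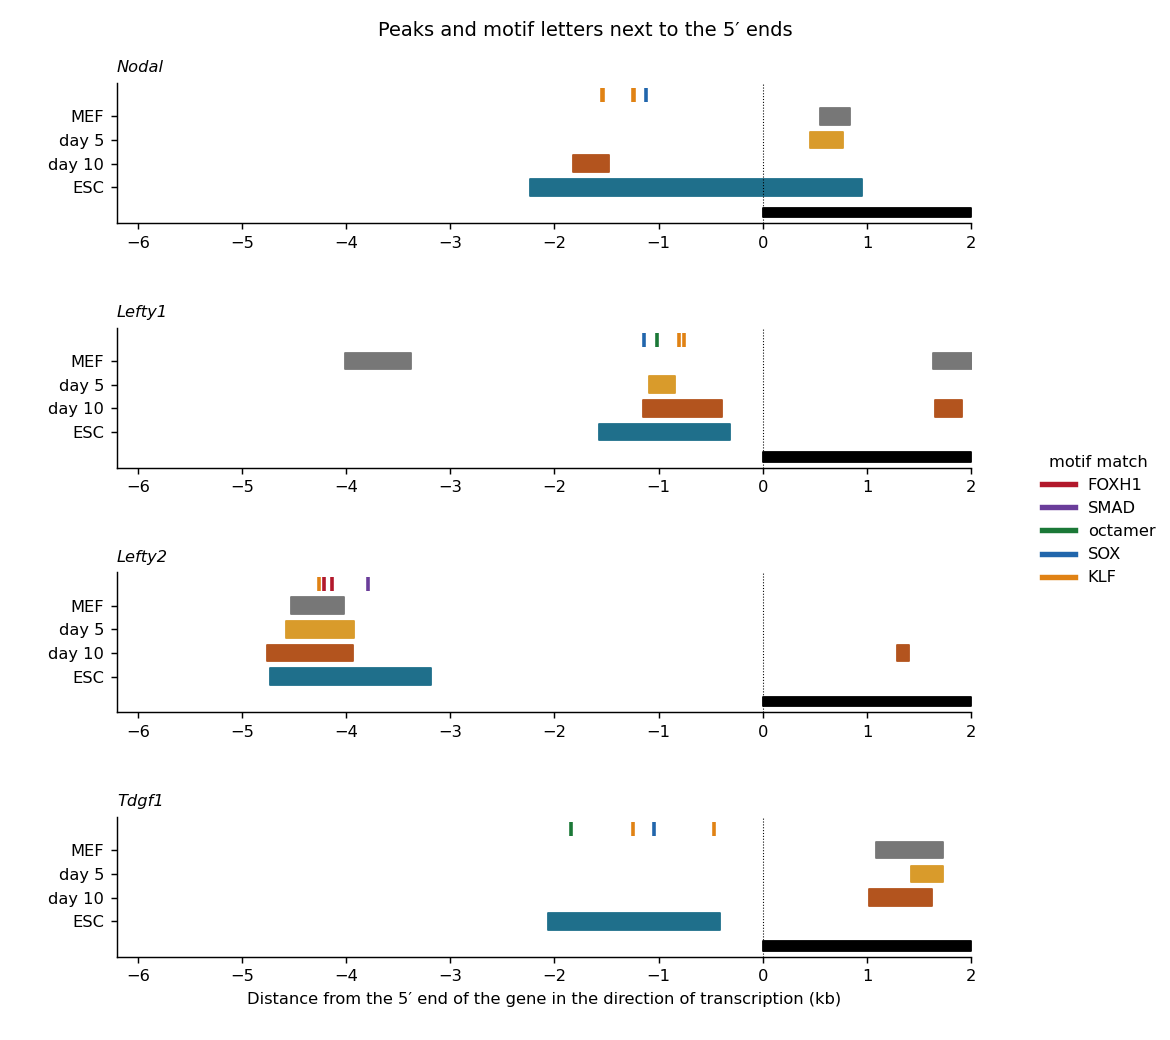
Peaks of the 4 lists (coloured bars) around the 5′ ends of Nodal, Lefty1, Lefty2 and Tdgf1, by distance from the 5′ end in kb (x axis, negative is upstream). The black bar is the gene, and ticks above mark motif matches in the region over or just upstream of the 5′ end. The ESC bar is the longest of each upstream stretch, at 3185, 1258, 1539 and 1648 bp, and the tick of the SMAD match at Lefty2 falls in the ESC bar alone.

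Between and around both Lefty genes, other regions in all 4 lists included those over the start sites of Sde2 and Tmem63a. Only 1 more region had peaks in the ESC list and on a day of reprogramming but not in MEFs, an intronic region of Ephx1 (chr1:180980247-180981723) 46.0 kb downstream of the Lefty1 5′ end, with 1105 bp at day 5 and 1003 bp in ESCs. An intergenic region of 582 bp, 10.0 kb upstream of Lefty1, was present in the ESC list only and held FOXH1 and SOX letters in its central 300 bp. The day 10 list alone had 855 bp in the intergenic stretch between Lefty2 and Lefty1, 112 bp within Lefty2 and 267 bp within Tmem63a. Their −log10 q-values were 1.72, 1.64 and 3.18. Day 10 had the most peak sequence of the 4 lists in the Lefty2 window, 10251 bp against 8320 bp in MEFs, 5508 bp at day 5 and 6070 bp in ESCs. Much of the difference lay in the region over the Sde2 start site. It held 3289 bp at day 10, against 1719 bp in MEFs, 1444 bp at day 5 and 769 bp in ESCs.

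Tdgf1 (ENSMUSG00000032494.12, chr9:110939603-110946158, minus strand), the co-receptor gene, had 2 peaks in each of the MEF, day 5 and day 10 lists and 7 in the ESC list. These amounted to 1384, 1024, 1409 and 5540 bp of peak sequence. The 7 ESC peaks put Tdgf1 at percentile 82.6 of all genes in that list, and the 2 MEF peaks at percentile 26.6 in the MEF list. The upstream peak, chr9:110946574-110948221, was 1648 bp wide, from 416 to 2063 bp upstream of the 5′ end, and entirely intergenic. It was present in the ESC list only, with a fold enrichment of 3.46 and a −log10 q-value of 12.3, in the top 6.03% of the list. Its SOX match lay 1041 bp, its KLF matches 470 and 1245 bp and its octamer match 1841 bp upstream of the 5′ end.

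Within Tdgf1 the order of the lists was the reverse. A region over an internal start site of a protein-coding transcript (chr9:110944427-110945139) had a peak of 643 bp in MEFs, 311 bp at day 5 and 601 bp at day 10, and none in ESCs. The day 5 peak ended 134 bp short of that start site. The −log10 q-value was 3.65 for the MEF peak, 1.65 for day 5 and 1.85 for day 10. The peak nearest the 5′ end of Tdgf1 thus lay downstream of it in MEFs and on both days, and upstream of it in ESCs.

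The 5 other ESC-specific regions of the Tdgf1 window were present in the ESC list only. They lay in Lrrc2 (14.5, 19.2 and 33.8 kb upstream of the 5′ end, the first over a start site), in an intron of Gm10030 (48.8 kb upstream) and in Als2cl over a start site of Gm43127 (49.8 kb downstream). The Gm10030 region, chr9:110994819-110995122, had the highest fold enrichment of the window in ESCs, 4.28. The single region found in all 4 lists took in a start site of Lrrc2 (741, 713 and 808 bp in MEFs, day 5 and day 10). Its ESC peak was 108 bp with a −log10 q-value of 1.08, close to the lowest value of 1.01 in the lists. The day 10 and ESC peaks held no exon base, so they did not cover that start site.

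Foxh1 (ENSMUSG00000033837.5, chr15:76668225-76669948, minus strand), the DNA-binding partner of the SMADs, had 8, 7, 8 and 8 peaks but none over a start site of its own. The nearest peak lay upstream, at 1302, 1453, 1279 and 1584 bp from its 5′ end in the MEF, day 5, day 10 and ESC lists. That peak was over the start site of the neighbouring gene Ppp1r16a. Of its 9 regions, 7 lay over start sites of neighbours (Vps28, Tonsl, Cyhr1 and Kifc2, Ppp1r16a, Gpt, Mfsd3, Lrrc14 and Recql4), and 7 were present in both MEF and ESC lists, on both days as well. The highest fold enrichment of the window in the ESC list, 5.54, was at the Cyhr1 and Kifc2 start sites (chr15:76659696-76660574). The 1 ESC-specific region, 557 bp in Cyhr1, had no peak on either day.

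Acvr1b (ENSMUSG00000000532.11, chr15:101174067-101213684, plus strand), the type I receptor gene, had 15 peaks in the MEF list, 10 at day 5 and 9 in each of the day 10 and ESC lists. These were the highest counts of the 7 genes except at day 10, where Lefty2 had 10. The Acvr1b window of 139.618 kb was also the longest. The region at its 5′ end, chr15:101173504-101174780, had a peak in all 4 lists that was 1270 bp wide in MEFs, 861 bp at day 5, 506 bp at day 10 and 312 bp in ESCs. The MEF and day 5 peaks covered the 5′ end, while the day 10 peak ended 58 bp and the ESC peak 174 bp short of it. The peak of the ESC list was the narrowest and had the highest fold enrichment, which was 2.85, 2.99, 2.74 and 3.79 in the order of the lists. The order of widths ran opposite to the upstream regions of Nodal, Lefty1 and Lefty2.

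Of the 18 regions of Acvr1b, 8 were MEF-specific, 2 ESC-specific, 7 common to MEFs and ESCs and 1 was seen at day 5 only. Among the MEF-specific regions were 4 within the neighbouring genes Acvrl1 and Nr4a1. They included the Nr4a1 start site with 858, 499 and 889 bp in MEFs, day 5 and day 10. Both ESC-specific regions, 468 bp in an Acvr1b intron and 273 bp in Grasp, were absent on both days. The region with the highest fold enrichment in ESCs, 4.52, lay over the start of AU021063, 47.4 kb from the 5′ end.

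Acvr2b (ENSMUSG00000061393.14, chr9:119402118-119434995, plus strand), the type II receptor gene, had 5, 7, 6 and 4 peaks. The region over its start sites, chr9:119401448-119403687, was broad in every list, at 2161 bp in MEFs, 1850 bp at day 5, 2240 bp at day 10 and 2025 bp in ESCs. It was the most even of the start-site regions of the 7 genes. The −log10 q-value was highest in MEFs, 11.1, against 4.79, 4.42 and 4.25. An intronic region 23.4 kb downstream had peaks in MEFs and on both days (792, 581 and 774 bp) and none in ESCs. The 1 ESC-specific region, in an intron of the neighbour Xylb (chr9:119375245-119375985), was 741 bp in ESCs and had a 396 bp peak at day 5 with a −log10 q-value of 1.35, and none at day 10. The highest fold enrichment in the ESC list, 3.87, was at the Exog start site.

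**Figure D3:**
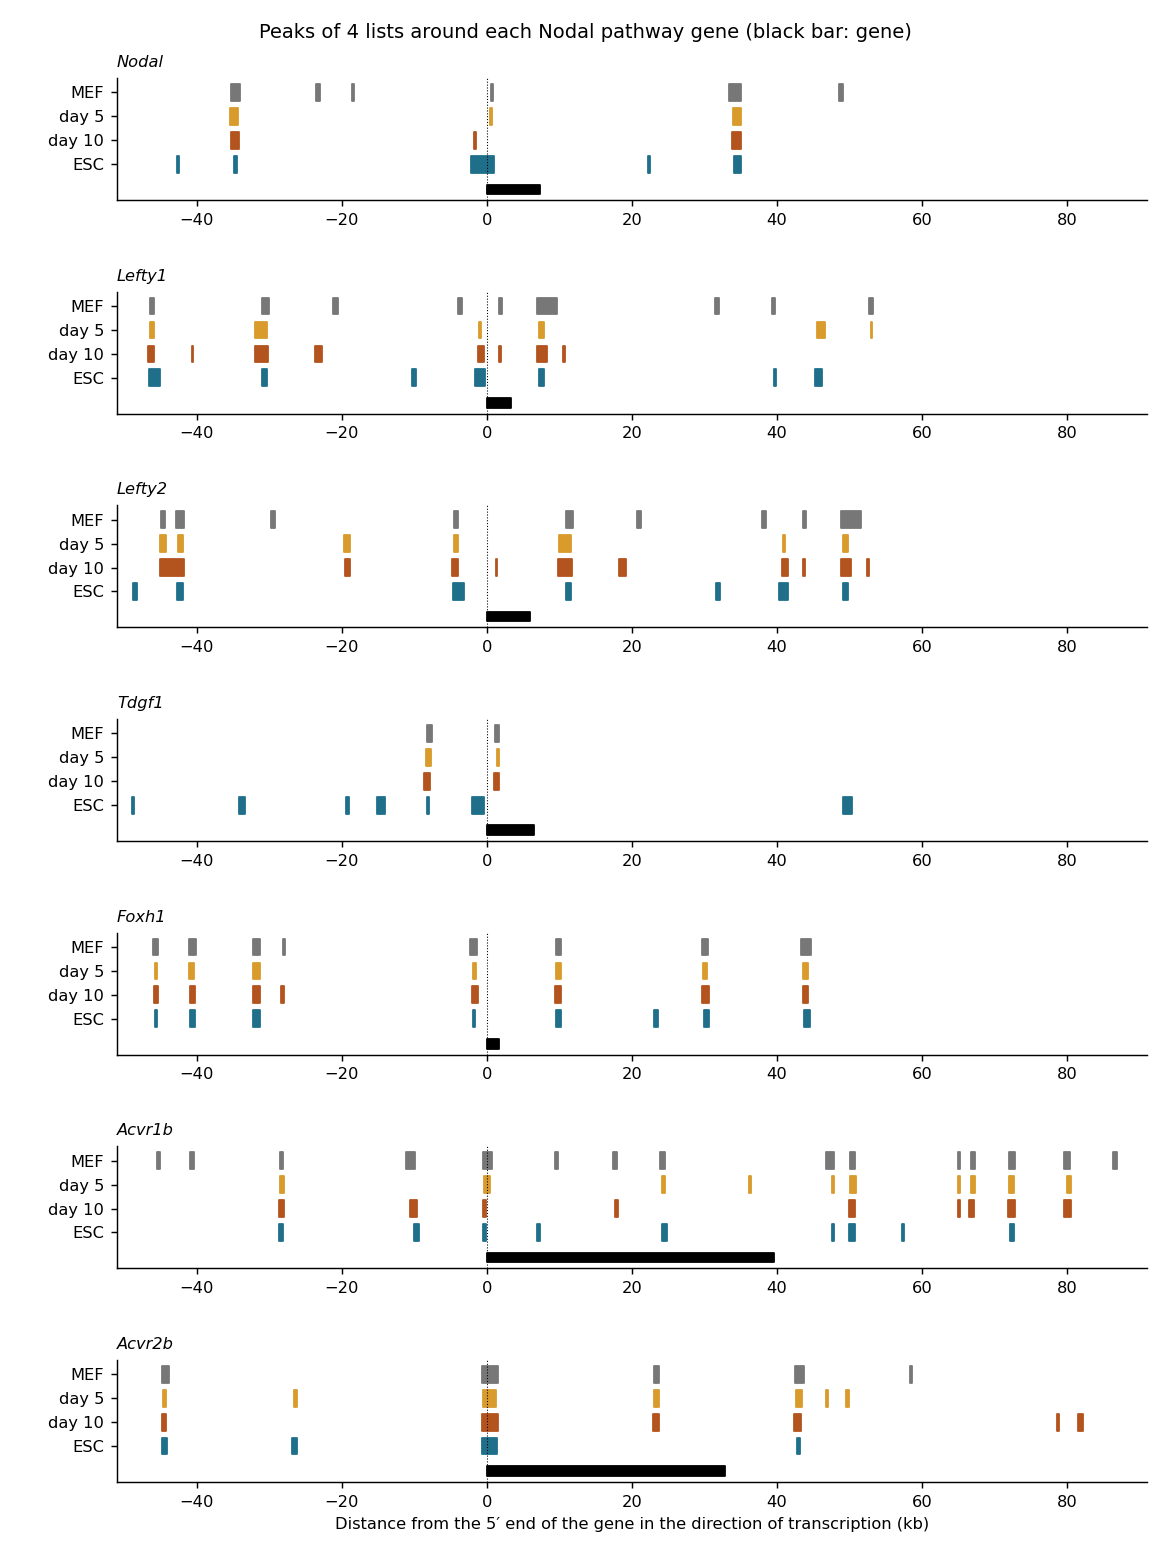
Every peak of the 4 lists (rows) in the windows of the 7 genes, by distance from the 5′ end of the gene in kb in the direction of transcription (x axis). The black bar is the gene. Columns of bars in all 4 rows are regions in all 4 lists, which make up most of the Foxh1 window, and bars in the ESC row alone gather upstream of Tdgf1.

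The peaks of the 4 lists were merged into regions where they lay within 400 bp of each other, which gave 72 regions at these loci of 101701 in all. A region was MEF-specific or ESC-specific when it had a peak in that list and not in the other, common when in both and transient when on day 5 or day 10 alone. Of the 72 regions, 26 (36.1%) were common, with a 95% Wilson interval of 26.0 to 47.6%, against 19.1% of all regions. Another 21 (29.2%, 19.9 to 40.5%) were MEF-specific, against 36.4%, and 16 (22.2%, 14.2 to 33.1%) were ESC-specific, against 28.4%. The remaining 9 (12.5%, 6.72 to 22.1%) were transient, against 16.1%. The intervals cover counting error only, treat neighbouring regions as independent and were not a test. The 72 regions came from windows around genes, while all regions include those outside any such window. Shares of classes and of start sites are therefore not compared like for like. Of the 72 regions, 28 lay over an annotated start site, against 16.3% of all regions. Among them were 19 of the 26 common regions, against 63.9% of all common regions, and 6 of the 21 MEF-specific regions, against 6.07% of all. The others were 2 of the 16 ESC-specific regions (5.36% of all) and 1 of the 9 transient regions (2.34% of all). For the common regions, apart from those of Nodal, Acvr1b and Acvr2b, these start sites belonged to neighbouring genes.

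All 7 windows held at least 1 ESC-specific region, as did 75.8% of all genes, and at least 1 MEF-specific region, as did 75.1%. An ESC-specific region with a peak at day 5 or day 10 was found in the windows of Lefty1, Lefty2 and Acvr2b, 3 of 7 genes, against 24.9% of all genes. Lefty1 and Lefty2 shared the region just upstream of Lefty1, and the Ephx1 region was in the Lefty1 window only. Counted over regions, 3 of 16 ESC-specific regions (18.8%, 6.59 to 43.0%) had a peak on either day, against 15.1% of all ESC-specific regions. Among MEF-specific regions, 9 of 21 (42.9%, 24.5 to 63.5%) had a peak on either day, against 18.9% of all. Peaks on both days were found for 5 of 21 (23.8%, 10.6 to 45.1%), against 10.2% of all. Of the 26 common regions, 25 had a peak on either day (96.2%, against 83.6%). With every list limited to 35226 peaks, 7 of 17 ESC-specific regions had a peak on either day, in place of 3 of 16. The share over all regions was not computed for the limited lists. The 15.1% above belongs to the full lists and is no background for this count.

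**Figure D4:**
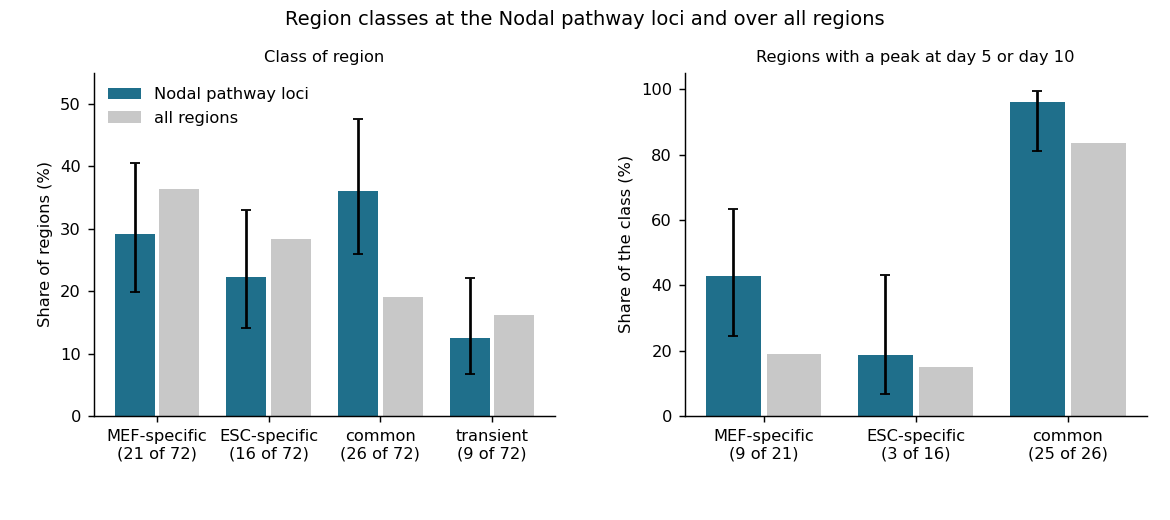
Left, share of the 72 regions at the Nodal pathway loci in each class (blue, y axis in %) and of all 101701 regions (grey). The grey regions were not limited to windows around genes. Right, share of each class with a peak at day 5 or day 10. Error bars are 95% Wilson intervals for counting error only, and the share of common regions, 36.1% against 19.1% of all, is the widest gap between blue and grey on the left.

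Motif letters were counted in the central 300 bp of every region, where each of the 72 regions was compared with all regions at the same length. All regions were again not limited to windows around genes. KLF letters were in 16 of 72 (22.2%), against 10.5% of all regions, SOX letters in 4 (5.56%, against 14.4%), and AP-1 letters in 3 (4.17%, against 15.7%). FOXH1 letters were in 3 (4.17%, against 3.07%) and octamer letters in 3 (4.17%, against 3.18%). The SMAD and ESRRB letters were in 0 of 72, against 0.293% and 1.04% of all regions. The FOXH1 and SMAD matches of the Lefty2 upstream region lay outside its central 300 bp and were found only when the whole region was read. No share over all regions was counted for whole regions. The ESC peak covered all or nearly all of each upstream region read whole, so most matches there had to lie in it.

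Another 30 genes of the pathway, from a list of ligands and proteases, receptors, signal carriers, inhibitors and targets, were counted the same way. A start-site peak was found for 22 of 30 in the MEF list (60% of all genes), 17 at day 5 (52.1%), 17 at day 10 (56%) and 23 in the ESC list (55.8%). Their windows held more peaks in ESCs than in MEFs for 6 of 30 genes (35.6% of all genes) and fewer for 18 (42.2%). The 5 signal carriers and nuclear partners had a start-site peak in every list. Of the 6 ligands and proteases, 4 had 1 in the MEF list, 1 at day 5, 2 at day 10 and 5 in the ESC list. Of the 10 inhibitors, 7, 7, 6 and 8 had 1, and of the 6 targets 4, 2, 2 and 3.

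Among these other pathway genes, the start-site peak differed between MEFs and ESCs for Gdf3, Ski and Gsc. The share of all genes with such a difference was not counted. Gdf3, a ligand that also signals through Cripto, had a start-site peak in the ESC list only. Ski, a repressor that binds SMADs, had 1 at day 5 and in ESCs and not in MEFs or at day 10. Gsc, a homeobox gene induced by Nodal, had a start-site peak in the MEF list only, although its window held 4 peaks in MEFs, 2 on each day and 7 in ESCs. Cfc1, which encodes the other EGF-CFC co-receptor, had no start-site peak in any list, with 3, 4, 4 and 8 peaks in its window. In ESCs both co-receptor genes therefore had more peaks in their windows than in MEFs, and neither had one over a start site.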

How the data were processed

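ATAC-seq was done on 8 mouse libraries, 2 for each of 4 groups named in the sample titles. The authors mapped reads to mm10 with bowtie2 in very sensitive mode (Bowtie2 2.2.0 in the submitters' processing notes, a later version in the methods), kept uniquely mapped reads above a mapping quality that labels and methods state differently, and dropped mitochondrial reads. The peak caller, its settings and the step that combined replicates are not given in the sources used here. The labels place the ESCs on feeders in serum and LIF, while the methods describe ESCs in 2i medium.

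The authors deposited 1 headerless peak list per group, with a score, the enrichment over background as a fold ratio, and p- and q-values as −log10 for each peak. Peak names are those of replicate 1 and the lists are named as intersections. An interval therefore appears to be the part of a replicate 1 peak that replicate 2 also covered. Its score and fold would then describe the whole replicate 1 peak, while its width and edges would depend on both replicates. None of the intervals at these loci was 1 of several pieces of a peak. Depth was not given, and no value per library was used.

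Genes, transcripts and start sites came from GENCODE mouse release 21 and sequence from RefSeq's GRCm38 assembly. Peaks overlapping a gene or 50 kb to each side by at least 1 bp were counted for every protein-coding gene. Peaks of all lists within 400 bp were merged into regions, and motif letters were searched in the central 300 bp of each region and over the whole of 4 upstream regions. Of all 50-base words in the gene bodies and the 2 kb before them, 93.4 to 98.8% occurred once in the genome, so that uniquely mapped reads could fall there. With 1 list per group no test was made. Counting was checked against direct enumeration on simulated peaks (Python 3.11.15, pandas 2.3.3, numpy 2.4.6, scipy 1.17.1). The members and gene lists were chosen with earlier results of these data known. The text names all 7 members, other pathway genes whose start-site peak differed between MEFs and ESCs, neighbours with a start site under a region described, and for each member the region at its start site, the region of highest fold in the ESC list and each region in the ESC list and on a day but not in MEFs. Cfc1, the Acvr1b and Acvr2b introns and the Lefty intergenic regions were named after their values were seen. A neighbouring gene that this rule would name is not reported here.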

Additional observations from a re-analysis of the deposited data

How the results depend on the processing

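Of 72 counts recomputed under the alternatives, 50 stayed within 1.5 times the reported count and 22 did not. With 20 kb windows the peaks numbered 22 for MEFs, 20 at day 5, 21 at day 10 and 22 for ESCs, and the regions 8 MEF-specific (4 with a peak on a day), 8 ESC-specific (1 with a peak on a day) and 14 common. With 100 kb windows there were 77 MEF peaks, 67 ESC peaks, 37 MEF-specific and 28 ESC-specific regions. These changes follow from the length searched. With each list limited to its 35226 best-scoring peaks there were 31 MEF peaks, 16 common and 14 transient regions, a start-site peak in MEFs at 2 of 7 genes, and 7 ESC-specific regions with a peak on a day in place of 3. The 7 included the Nodal start region, the Lefty2 upstream region and 4 Acvr1b regions, 1 of them at the Acvr1b 5′ end. These had lost their MEF peaks. The Lefty1 upstream region was not among the 7, because it lost its ESC peak. With a −log10 q-value of at least 2, 2 of 7 genes had a start-site peak at day 10. With protein-coding transcripts only, the count was 3 in MEFs and 2 in each of the other lists. Within 1 kb of a start site, 5 of 7 genes had a peak in every list, so this count did not differ between the lists. Added after the data were seen, merging over 0 bp or 1 kb left the Nodal ratio of 9.21 first among regions in all 4 lists. With equal list sizes or the stricter threshold, the Nodal region was no longer in all lists and had no ratio. No paired analysis was possible because each group had 1 list for both libraries, and for the same reason leaving out each replicate was not run. Peak lists hold no depth, so an unlisted peak sets no upper limit on accessibility.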
